A study of Mus musculus with 8 samples.

Results

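The mitochondrial respiratory chain carries electrons from nutrients to oxygen and stores the energy as a proton gradient across the inner membrane. Complex II (succinate dehydrogenase) passes electrons from succinate to ubiquinone, complex III (the cytochrome bc1 complex) passes them on to cytochrome c, and complex IV (cytochrome c oxidase) gives them to oxygen. Complex V, the ATP synthase, uses the gradient to make ATP. Complex II is built from nuclear genes alone, while complexes III, IV and V each join nuclear subunits to subunits encoded on the mitochondrial chromosome. Macrophages that respond to interleukin 4 (IL-4), the cytokine of alternative activation, are known for their use of oxidative phosphorylation.

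The subunits of complexes II to V were followed in RNA of bone-marrow-derived macrophages, with members taken by a rule on gene symbols. The rule took the Sdha to Sdhd genes, the Uqcr genes with Cyc1 and the mitochondrial mt-Cytb, cytochrome c (Cycs), the Cox4 to Cox8 genes with Ndufa4 and mt-Co1 to mt-Co3, and the Atp5 genes with mt-Atp6 and mt-Atp8, and it left out 1 symbol marked as a pseudogene. It found 51 genes of the 13384 listed in both tables: 4 of complex II, 10 of complex III, cytochrome c, 18 of complex IV and 18 of complex V. Of these, 45 are nuclear, spread over 19 chromosomes, and 6 are mitochondrial. The symbol rule also takes in genes that are not core subunits. Cox7a2l belongs to supercomplexes, Atp5s is a coupling factor, and Cox6a2, Cox6b2 and Cox7a1 are isoforms best known from muscle or testis.

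Cells came from female mice of 12 weeks, labelled as knockouts of NF-κB-inducing kinase (NIK KO) or as wild type (WT), with 2 mice of each genotype. Marrow was grown for 7 days with 30% conditioned medium of L929 cells as a source of M-CSF, and was replated in 5%. For 6 hours, the cells then received 20 ng/mL IL-4 or PBS, which made 8 libraries in 4 groups of 2. Neither the strain nor the NIK allele, with the part of the gene it removes, is given in the sources used here. Map3k14, the gene of NIK, stood higher in the libraries labelled NIK KO in the authors' deposited tables. Group means worked out from those tables were 832 against 418 mean normalized counts with IL-4 and 902 against 425 with PBS. The targeted gene thus goes against the labels. Whether the tables' direction is reversed cannot be told apart from a transcript that persists, and a reversal would turn every sign given here.

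The authors deposited 1 result per gene and treatment, not a value per library, so each comparison below is a log2 fold change of the libraries labelled NIK KO over WT with its standard error (SE). Group means were worked out from the deposited base mean, which averages counts scaled by library size, and from the fold change. The depth of each library is unknown, and the SE carries the spread of 2 mice against 2. Its median among members, in log2 units, was 0.19 with IL-4 and 0.28 with PBS, against 0.22 and 0.30 over all genes of base mean 100 or more. Members made up 1.91% of the summed base mean with IL-4 and 1.95% with PBS. In bulk RNA, fewer cells of a type and less RNA per cell cannot be told apart.

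With IL-4, the members of complexes III, IV and V lay almost all slightly lower in the libraries labelled NIK KO, while those of complex II did not. A log2 fold change below 0 was listed for 47 of 51 members (92.2%), against 51.1% of all 14193 genes, with a median of -0.21 against 0.01 over genes of base mean 100 or more. Short transcripts lay lower in this table as a whole, and 40 of the 51 members are among the shortest 20% of genes. With the trend of all genes on length subtracted, the median was -0.05, against -0.02 over all genes. After that subtraction 39 of 51 members were below 0, against 7521 of the 14193 genes. By complex, 10 of 10 members of complex III, 17 of 18 of complex IV, 17 of 18 of complex V and 2 of 4 of complex II were below 0. The shifts were small for single genes. At an unadjusted p under 0.05 the authors' deposited table holds 6 members (11.8%), against 2.95% of all genes. At an adjusted p under 0.05 it holds 1 member, mt-Co2 (1.96%), against 0.125% of the 13642 genes with an adjusted p.

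With PBS, the members lay close to the other genes. Values below 0 were listed for 31 of 51 (60.8%), against 51.7% of all 13676 genes, and the median was -0.05 against 0.00 over genes of base mean 100 or more. The authors' deposited table calls none of the 51 members at an adjusted p under 0.05 by DESeq2's Wald test, against 0.0366% of all genes. At an unadjusted p under 0.05 it holds 1 member (1.96%), mt-Co2 again, against 1.24% of all genes.

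The forest plot shows every member in both comparisons, and the plot of levels shows that the spread of members over levels is far wider than any shift between genotypes. Counts of 46 members with PBS and 47 with IL-4 reached a base mean of 100. The other members are Cox6a2, Cox6b2, Cox7a1 and Atp5s in both tables and Atp5g2 with PBS. These few low genes have the widest errors among nuclear members, up to an SE of 1.38 for Cox6b2 with PBS, and their fold changes carry little information.

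**Figure D1:**
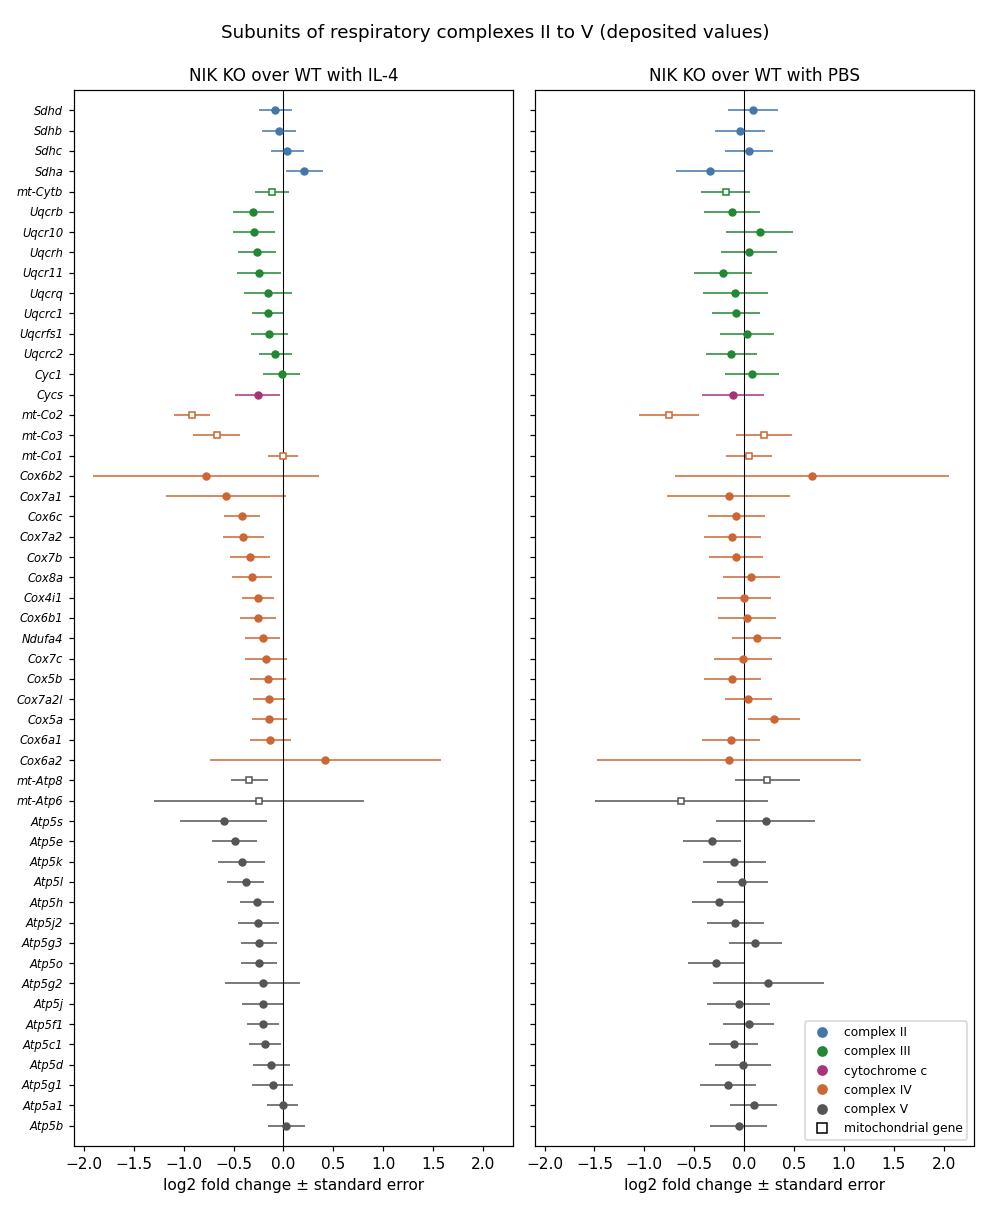
Log2 fold change of the libraries labelled NIK KO over WT for each of the 51 members, with IL-4 on the left and PBS on the right. Points are the authors' deposited values and bars their standard errors (2 mice against 2), coloured by complex, with open squares for mitochondrial genes. With IL-4, 47 of 51 points lie below 0 and mt-Co2 lies lowest, at -0.91, while complex II straddles 0.

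**Figure D2:**
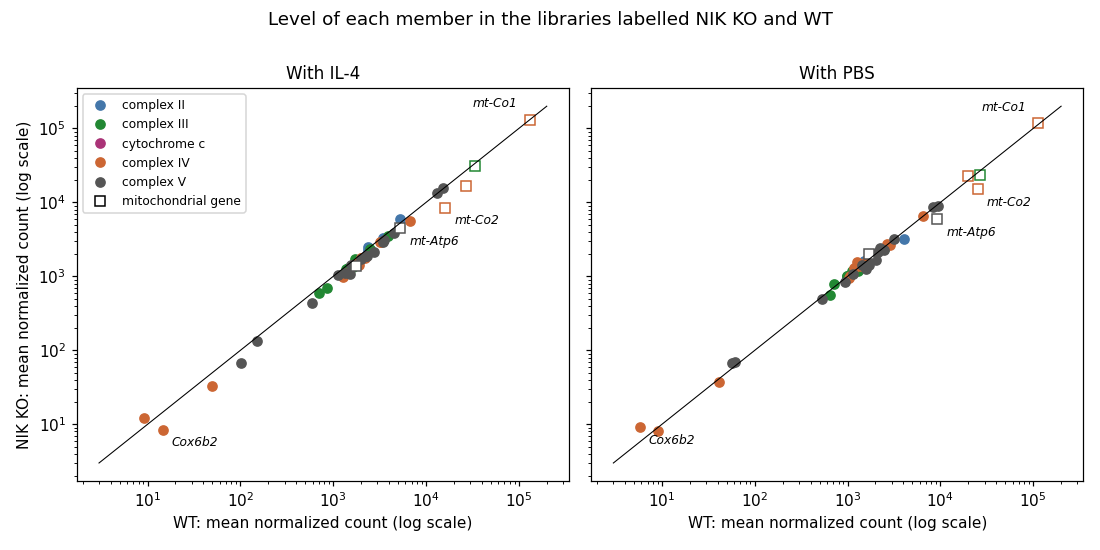
Mean normalized count of each member in the libraries labelled NIK KO (vertical, log scale) against WT (horizontal, log scale), with IL-4 on the left and PBS on the right. The line marks equal levels. mt-Co1 stands highest in both panels and on the line, and mt-Co2 lies below the line under both treatments.

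Complex II was the complex nearest to 0 with IL-4 in the values as deposited. Its 4 members had a median at 0 to the second decimal, and each had a 95% confidence interval inside a 1.5-fold change in either direction. Their median length was 2065.5 bases, against 1253.5 for complex III, 682 for complex IV and 823.5 for complex V. With the trend of all genes on length subtracted, the median was 0.05 for complex II and -0.05 for complex III. Sdha, the flavoprotein that oxidises succinate, had 6018 mean normalized counts in the libraries labelled NIK KO against 5205 in WT. Its log2 fold change in the authors' deposited table was 0.21 ± 0.19 (SE), the highest of all members of base mean 100 or more. Sdhb, the iron-sulfur subunit, had 3306 mean normalized counts in NIK KO against 3410 in WT (-0.04 ± 0.17 in the authors' deposited table). The membrane anchors that bind ubiquinone were just as close, with Sdhc at 0.04 ± 0.17 and Sdhd at -0.08 ± 0.17 in the authors' deposited table.

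With PBS, 3 of the 4 members of complex II lay near 0, while Sdha was the lowest of the 45 nuclear members. Sdha had 3218 mean normalized counts in the libraries labelled NIK KO against 4070 in WT, a log2 fold change of -0.34 ± 0.35 in the authors' deposited table. That interval, from -1.02 to 0.34, leaves room for a 1.5-fold change. For Sdhb, Sdhc and Sdhd, the authors' deposited table gives -0.04 ± 0.25, 0.05 ± 0.24 and 0.09 ± 0.25, and those intervals lie inside 1.5-fold. Sdha thus had opposite signs, at 0.21 with IL-4 and -0.34 with PBS. The difference of 0.55 ± 0.39 did not pass (z test, adjusted p = 1.00 with Benjamini-Hochberg adjustment over all genes).

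In complex III, all 10 members were listed below 0 with IL-4, with a median of -0.15, and 6 of 10 with PBS, with a median of -0.08. None reached an unadjusted p under 0.05 in either table. The redox core of the complex, where the electrons travel, was the part nearest to 0 with IL-4. It consists of mt-Cytb (cytochrome b), Cyc1 (cytochrome c1) and Uqcrfs1 (the Rieske iron-sulfur protein), with values of -0.12 ± 0.17, -0.02 ± 0.18 and -0.14 ± 0.19 in the authors' deposited table. The 7 other subunits had a median of -0.25, from -0.30 for Uqcrb to -0.08 for the core protein Uqcrc2. These 7 have shorter transcripts, with a median of 547 bases against 1363 for the redox core. With the trend of all genes on length subtracted, the medians were -0.05 for the 7 and -0.002 for the redox core.

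Uqcrb, a small subunit at the ubiquinone site, was the lowest member of complex III with IL-4. It had 1333 mean normalized counts in the libraries labelled NIK KO against 1645 in WT, a log2 fold change of -0.30 ± 0.21 in the authors' deposited table. Cyc1 was the highest, at 1709 mean normalized counts in NIK KO against 1729 in WT. With PBS the extremes were other genes. Uqcr11 was lowest, at -0.21 ± 0.29, and Uqcr10 highest, at 0.15 ± 0.33, both small membrane subunits, in the authors' deposited table. Uqcr10 lay at -0.30 ± 0.21 with IL-4, and its difference between treatments, -0.45 ± 0.39, did not pass (z test, adjusted p = 1.00).

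Cycs encodes cytochrome c, the soluble carrier between complexes III and IV. It had 1891 mean normalized counts in the libraries labelled NIK KO against 2259 in WT with IL-4, and 1508 against 1628 with PBS. Its log2 fold changes in the authors' deposited tables were -0.26 ± 0.23 and -0.11 ± 0.31. Both are within 2 SE of 0.

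Complex IV held the 1 member that passed the test, and with IL-4 its nuclear subunits lay in the same direction with small values. The 11 nuclear subunits other than tissue isoforms and Cox7a2l were all below 0 with IL-4, from -0.42 for Cox6c to -0.13 for Cox6a1, with a median of -0.25. With PBS, 7 of these 11 were below 0 and the median was -0.01. Cox6c, a small membrane subunit, had 1426 mean normalized counts in the libraries labelled NIK KO against 1902 in WT with IL-4. The authors' deposited table gives it -0.42 ± 0.18 (p = 0.0244, adjusted p = 1.00 by DESeq2). For PBS, Cox6c had 1492 against 1578 (-0.08 ± 0.29 in the authors' deposited table).

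Cox7a2, another small membrane subunit, had 976 mean normalized counts in the libraries labelled NIK KO against 1289 in WT with IL-4 (-0.40 ± 0.20 in the authors' deposited table, p = 0.0477, adjusted p = 1.00 by DESeq2). With PBS it had 951 against 1031 (-0.12 ± 0.28 in the authors' deposited table). Cox4i1, the largest nuclear subunit and the regulatory site for ATP, was the nuclear member with the highest level per kilobase of transcript in WT under both treatments and in the libraries labelled NIK KO with PBS. It had 5576 mean normalized counts in NIK KO against 6663 in WT with IL-4, and 6519 against 6525 with PBS. Cox5a, a matrix subunit, was, among members of base mean 100 or more, the highest of complex IV with PBS, with 1571 against 1276 mean normalized counts (0.30 ± 0.26 in the authors' deposited table), and lay at -0.14 ± 0.18 with IL-4. Ndufa4, once assigned to complex I and now counted with complex IV, had 1376 against 1590 mean normalized counts with IL-4 (-0.21 ± 0.18 in the authors' deposited table).

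The catalytic core of complex IV is made from mt-Co1, mt-Co2 and mt-Co3. mt-Co1, which holds the site where oxygen is reduced, was the most abundant member and lay at the same level in both genotypes. It had 131350 mean normalized counts in the libraries labelled NIK KO against 131520 in WT with IL-4, a ratio of 0.999, and 117100 against 113350 with PBS, a ratio of 1.03. The SE of mt-Co1 was 0.15 with IL-4 and 0.23 with PBS in the authors' deposited tables.

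mt-Co2 (ENSMUSG00000064354), the subunit that receives electrons from cytochrome c, was lower in NIK KO than in WT in the IL-4 comparison. It had 8491 mean normalized counts in the libraries labelled NIK KO against 16005 in WT, a ratio of 0.531. Summed with a near-identical copy described below, the log2 ratio was -0.31. The authors' deposited table gives -0.91 ± 0.18 (p = 2.78e-07, adjusted p = 9.48e-04 by DESeq2's Wald test with Benjamini-Hochberg adjustment). Read against a t distribution with 2 degrees of freedom in place of the normal, the same statistic did not pass (adjusted p = 1.00). With PBS mt-Co2 had 15035 against 25348 mean normalized counts (-0.75 ± 0.30 in the authors' deposited table, p = 0.0118, adjusted p = 1.00). The difference between the treatments, -0.16 ± 0.35, did not pass (z test, adjusted p = 1.00).

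mt-Co3 (ENSMUSG00000064358), the third core subunit, had 16914 mean normalized counts in the libraries labelled NIK KO against 26903 in WT with IL-4, and 22713 against 19834 with PBS. Its log2 fold change in the authors' deposited tables was -0.67 ± 0.23 with IL-4 (p = 0.00432, adjusted p = 0.772 by DESeq2) and 0.20 ± 0.28 with PBS. It was the 1 member of 51 whose genotype difference itself differed between treatments at an unadjusted p under 0.05 (-0.87 ± 0.37, z test, 95% confidence interval -1.58 to -0.15), against 0.867% of the 13384 genes in both tables. None of the 51 passed after Benjamini-Hochberg adjustment, against 0.0149% of all genes, and the adjusted p of mt-Co3 was 1.00.

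The levels of mt-Co2, mt-Co3 and mt-Atp6 rest on how reads were divided between near-identical transcripts. Each has a copy on chromosome 1 that is annotated as a gene of its own and is listed in both tables. In the GENCODE M21 transcripts of GRCm38, which is not the authors' build, mt-Co2 aligned with Gm28661 over 681 bases with 0 mismatches, mt-Atp6 with Gm10925 over 678 bases with 0 mismatches, and mt-Co3 with Gm28437 over 783 bases with 0 mismatches. The members run on for 3, 3 and 1 bases beyond the copies. The ends of these transcripts are printed because they hold the only bases that tell each pair apart, shown in capitals, 5′ to 3′.
mt-Co2: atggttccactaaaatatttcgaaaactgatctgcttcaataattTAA
Gm28661: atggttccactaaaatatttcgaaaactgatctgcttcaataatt
mt-Co3: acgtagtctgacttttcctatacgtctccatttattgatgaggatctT
Gm28437: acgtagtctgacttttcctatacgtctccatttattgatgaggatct
mt-Atp6: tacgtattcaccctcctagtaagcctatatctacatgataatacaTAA
Gm10925: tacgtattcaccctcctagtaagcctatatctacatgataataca

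Summed over each pair, the difference between the genotypes shrank for mt-Co2 and mt-Co3. The pair of mt-Co2 and Gm28661 had 45291 mean normalized counts in the libraries labelled NIK KO against 56207 in WT with IL-4, a log2 ratio of -0.31 in place of -0.91 for mt-Co2 alone. With PBS the pair had 43563 against 45173, a log2 ratio of -0.05 in place of -0.75. mt-Co2 took 18.7% of its pair in NIK KO against 28.5% in WT with IL-4, and 34.5% against 56.1% with PBS. The bar plot of the pairs shows the copy next to the gene. Gm28661 had 36800 mean normalized counts in NIK KO against 40202 in WT with IL-4, and 28528 against 19825 with PBS, where it was the higher in NIK KO.

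For mt-Co3 and Gm28437, the pair had 41985 mean normalized counts in the libraries labelled NIK KO against 53557 in WT with IL-4, a log2 ratio of -0.35, and 39006 against 42787 with PBS, a log2 ratio of -0.13. The pair thus lay lower in NIK KO under both treatments, where mt-Co3 alone had opposite signs. For mt-Atp6 and Gm10925 the pair gave -0.24 with IL-4 and 0.30 with PBS. The gene mt-Atp6 alone had -0.24 ± 1.06 and -0.63 ± 0.87 in the authors' deposited tables. With IL-4 it had 4456 mean normalized counts in NIK KO against 5274 in WT. Its interval there ran from -2.31 to 1.83, so no size of change could be read from it. The copies carry wide errors themselves with PBS, and Gm28437 does with IL-4 too. The authors' deposited tables give an SE of 0.21 with IL-4 and 1.59 with PBS for Gm28661, 0.95 and 0.87 for Gm28437, and 0.20 and 1.43 for Gm10925. A pair sum has no error here, since no value per library is given, and the part of the read division in the mt-Co2 call was not tested.

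**Figure D3:**
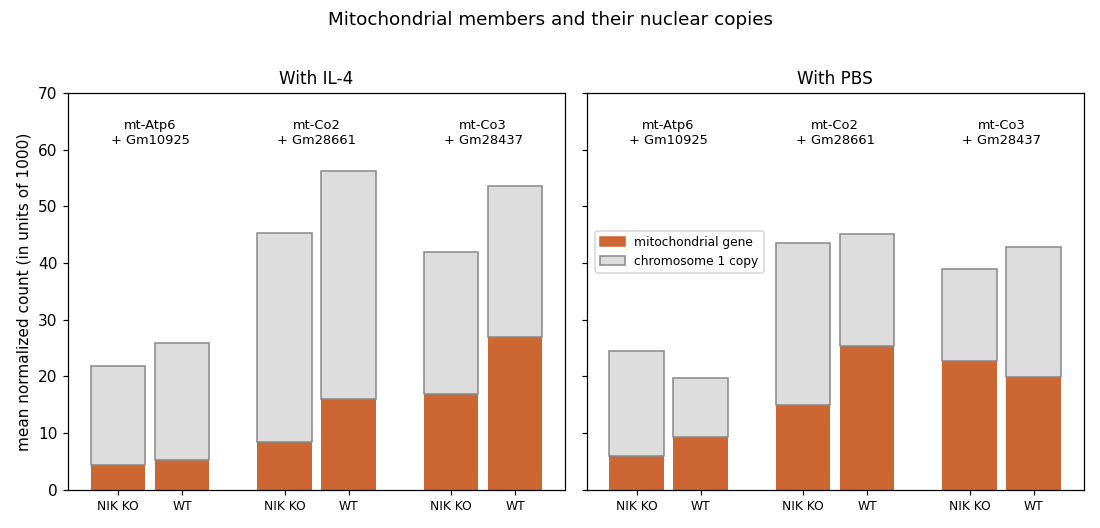
Mean normalized counts of 3 mitochondrial members (orange) stacked with their chromosome 1 copies (grey), in the libraries labelled NIK KO and in WT, with IL-4 on the left and PBS on the right. The bars are means worked out from the authors' deposited values and carry no error. The pair of mt-Co2 and Gm28661 stands at 45291 in NIK KO against 56207 in WT with IL-4, and at 43563 against 45173 with PBS.

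Other mitochondrial members are less entangled. Of the 31-base words of a transcript, mt-Cytb shares 6.55% with other genes and mt-Atp8 shares 7.47%, against 63.9% for mt-Co1. The partial copies of mt-Co1, Gm13340 on chromosome 2 and Gm29216 on chromosome 1, had 160 mean normalized counts or fewer. Thus mt-Co1 held at least 99.9% of each such pair. mt-Cytb had 31452 mean normalized counts in the libraries labelled NIK KO against 34087 in WT with IL-4 (-0.12 ± 0.17 in the authors' deposited table), and 23577 against 26824 with PBS (-0.19 ± 0.24). mt-Atp8, the small subunit of the ATP synthase that is joined to mt-Atp6 on 1 transcript, had 1390 against 1761 with IL-4 (-0.34 ± 0.19, p = 0.0704, adjusted p = 1.00 by DESeq2) and 2022 against 1720 with PBS (0.23 ± 0.33 in the authors' deposited table).

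Complex V joins a catalytic head to a rotor in the membrane, and its values are given by part as a description, with no test between parts. The head and central stalk, encoded by Atp5a1, Atp5b, Atp5c1, Atp5d and Atp5e, had a median of -0.12 with IL-4. Atp5a1 and Atp5b, the large subunits that form the catalytic ring, lay on the WT level. Atp5b had 15485 mean normalized counts in the libraries labelled NIK KO against 15158 in WT (0.03 ± 0.18 in the authors' deposited table, the highest of complex V). Atp5a1 had 13232 against 13293 (-0.01 ± 0.16 in the authors' deposited table). Atp5e, the smallest subunit of the head, was the lowest nuclear member of base mean 100 or more. It had 1088 against 1528 mean normalized counts (-0.49 ± 0.22 in the authors' deposited table, p = 0.0291, adjusted p = 1.00 by DESeq2).

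The other parts of complex V had medians between -0.38 and -0.21 with IL-4, and single genes overlapped with the head. The 4 genes of the peripheral stalk, Atp5f1, Atp5h, Atp5j and Atp5o, ranged from -0.27 to -0.20 with IL-4, a median of -0.22. The 3 genes of the c ring, Atp5g1, Atp5g2 and Atp5g3, encode the same mature protein, and ranged from -0.25 to -0.11 for Atp5g1, which is above the median of the head. The small membrane subunits Atp5j2, Atp5k and Atp5l, known for their part in the dimers of the enzyme, had a median of -0.38. Atp5l had 2106 mean normalized counts in the libraries labelled NIK KO against 2741 in WT with IL-4 (-0.38 ± 0.18 in the authors' deposited table, p = 0.0365, adjusted p = 1.00 by DESeq2), and shares 69.6% of its words with other genes. Atp5k had 440 against 589 (-0.42 ± 0.24 in the authors' deposited table). These parts also have shorter transcripts, with median lengths of 823.5 bases for the peripheral stalk, 753 for the c ring and 544 for the small membrane subunits, against 1735 for the head and central stalk. With the trend of all genes on length subtracted, the medians were -0.09, -0.07 and -0.15, against -0.03 for the head and central stalk.

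With PBS, the medians of the parts of complex V were -0.06 for the head and central stalk, -0.15 for the peripheral stalk, 0.11 for the c ring and -0.09 for the small membrane subunits. Atp5e was at -0.32 ± 0.29, Atp5l at -0.02 ± 0.25 and Atp5k at -0.10 ± 0.32 in the authors' deposited table. Among members of base mean 100 or more, mt-Atp6 was the lowest of complex V, at 6010 against 9289 mean normalized counts (-0.63 ± 0.87 in the authors' deposited table). At that SE, the interval of mt-Atp6 ran from -2.33 to 1.07, so no size of change could be read from it. mt-Atp8 was the highest.

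Taking the complexes side by side with IL-4, the medians were -0.15 for complex III, -0.25 for complex IV and -0.24 for complex V, against 0 to the second decimal for complex II. With the length trend subtracted they were -0.05, -0.07 and -0.09, against 0.05 for complex II. With PBS they were -0.08, -0.01, -0.05 and 0.00. The 6 mitochondrial members had a median of -0.29 with IL-4 and the 45 nuclear members -0.21, and with PBS -0.07 and -0.05. With the length trend subtracted, these medians were -0.03 and -0.05 with IL-4, and -0.05 and -0.03 with PBS. Of the mitochondrial members, mt-Co2, mt-Co3 and mt-Atp6 have values that rest on the division of reads with their copies. Differences between complexes were not tested, since the subunits of a complex are not replicates. The intervals of 23 members with IL-4 and of 13 with PBS lay inside 1.5-fold in both directions. Among genes of base mean 100 or more, this was 23 of 47 members with IL-4, against 4766 of 9513 genes. With PBS it was 13 of 46 members, against 1351 of 9266 genes. The genotype difference was lower with IL-4 than with PBS for 43 of 51 members (84.3%), against 50.2% of all genes. Among members the median of this difference between treatments was -0.16. Length was not taken out of these values. The length trend of all genes, read at the members' lengths, had a median of -0.17 with IL-4 and -0.03 with PBS.

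Levels with IL-4 were also set beside levels with PBS. The tables were normalized separately, so these ratios carry no test. Among the 46 members of base mean 100 or more in both tables, the median log2 ratio of IL-4 over PBS was 0.15 in the libraries labelled NIK KO and 0.35 in WT, against 0.28 and 0.27 over 9148 genes. Complex II had 0.48 in NIK KO and 0.41 in WT, complex III 0.27 and 0.35, complex IV 0.08 and 0.29, and complex V 0.12 and 0.23. For each gene, the gap between the genotypes in these ratios is the difference between treatments given above, not a separate result. Length was not taken out of it. The spread between single members was wide in both genotypes. Sdha had 0.90 in NIK KO and 0.35 in WT, Atp5b 0.79 and 0.70, and Uqcrc1, a core protein of complex III, 0.62 and 0.69. mt-Co2 alone had -0.82 and -0.66, but summed with its copy it had 0.06 and 0.32. Per kilobase of transcript, and with mt-Co2, mt-Co3 and mt-Atp6 each summed with its copy, the median level of mitochondrial members with IL-4 was 42820 mean normalized counts in the libraries labelled NIK KO against 53110 in WT. Without the copies these medians were 16990 and 26600, and those of nuclear members were 2070 in NIK KO and 2340 in WT.

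The nuclear members differ from most genes in transcript length, and with IL-4 the fold changes of all genes followed length. In the deposited IL-4 table, the median log2 fold change was -0.14 in the shortest 20% of genes and was higher in each next group, at -0.05, 0.00, 0.05 and 0.11 in the longest, a slope of 0.10 per doubling of length. With PBS the slope was 0.01. Of the 45 nuclear members, 34 fall in the shortest group. Among genes of that group with a base mean of 100 or more, the 31 members had a median of -0.25 and all 31 lay below 0, against a median of -0.14 and 82.0% below 0 over 1454 genes. The members are also shorter within the group, with a median length of 723 bases against 1161.

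Within the nuclear members the order by length was plain with IL-4. Spearman's rho between length and fold change was 0.72 over 41 members of base mean 100 or more, and -0.03 over 40 members with PBS. With the trend of all genes on length subtracted, rho was 0.14 with IL-4 and -0.14 with PBS. These values are across genes that share 4 libraries, and are a description. The 26 nuclear members under 1000 bases had a median of -0.25 with IL-4 and the 19 longer ones -0.12. The long transcripts hold Sdha at 2900 bases and Atp5a1 at 2674, and the short ones Atp5k at 371 bases and Atp5e at 421. The part of transcript length in the order of the complexes was not tested further. With the length trend subtracted, mt-Co2 stood at -0.73 and mt-Co3 at -0.50.

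**Figure D4:**
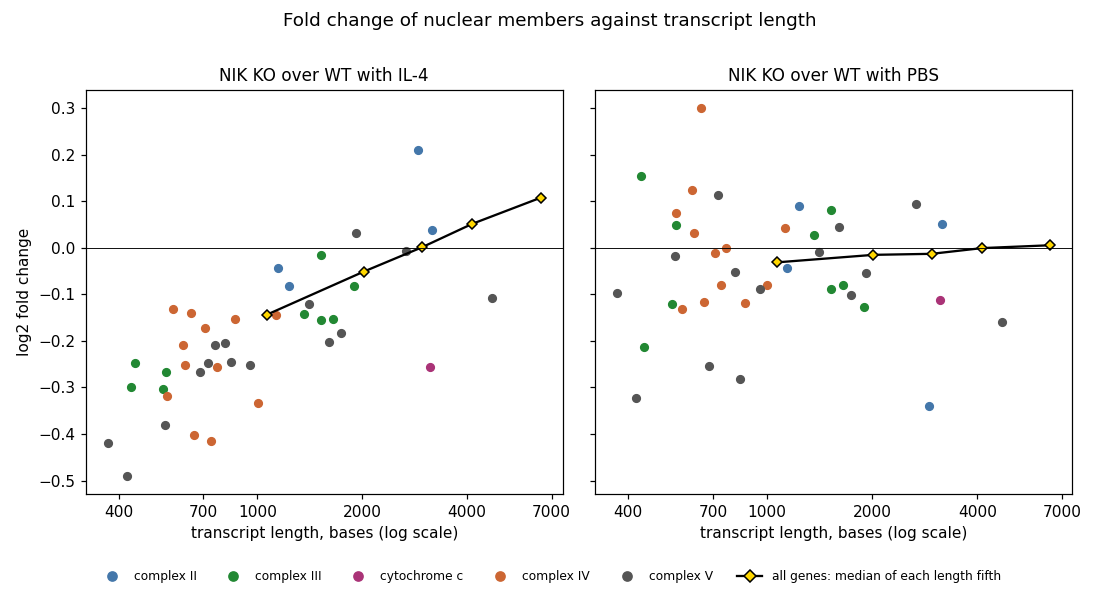
Log2 fold change of the libraries labelled NIK KO over WT against transcript length in bases (log scale) for nuclear members at a base mean of at least 100, IL-4 left and PBS right. Points are members coloured by complex, and the line joins the median of all genes in 5 length groups of equal size. With IL-4 the line runs between -0.14 and 0.11, and 38 of 41 members lie below 0. The line begins at 1064.5 bases, so the 23 members under 1000 bases lie left of it. With PBS the line is nearly flat.

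Promoters of the nuclear members were read for letters bound by factors known to drive respiratory genes. RefSeq promoters of GRCm38.p6, covering 250 bases before to 50 after the start, matched 34 of the 45 nuclear members. The letters CATGCGC of NRF-1, a nuclear respiratory factor, were found on either strand in 9 of 34 (26.5%), against 4.41% of 27025 genes. The longer NRF-1 palindrome, which contains those letters, was in 4 of 34 (11.8%), against 1.07%. The ETS letters CCGGAAGT were in 4 (11.8%), against 4.31%, the ERR letters TCAAGGTCA in 2 (5.88%), against 0.466%, and the YY1 letters AAGATGGC in 2 (5.88%), against 3.19%. Members with CATGCGC had a median of -0.21 with IL-4, and the other 25 had -0.25. The 100 bases before the start are shown for a member of each complex and for cytochrome c, to let the letters be seen in place. They are given on the strand of the gene, 5′ to 3′, with the matched letters or their reverse complement in capitals.
Sdhb, complex II, NRF-1, chr4:140961171-140961270, plus strand: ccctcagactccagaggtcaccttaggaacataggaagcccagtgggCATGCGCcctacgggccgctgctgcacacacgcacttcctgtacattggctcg
Uqcr11, complex III, ETS, chr10:80406822-80406921, minus strand: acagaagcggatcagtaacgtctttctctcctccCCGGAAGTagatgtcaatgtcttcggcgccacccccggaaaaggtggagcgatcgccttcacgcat
Cycs, cytochrome c, NRF-1, chr6:50566570-50566669, minus strand: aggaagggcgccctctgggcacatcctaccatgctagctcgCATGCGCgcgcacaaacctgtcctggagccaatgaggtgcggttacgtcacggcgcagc
Cox5b, complex IV, NRF-1, chr1:36691387-36691486, plus strand: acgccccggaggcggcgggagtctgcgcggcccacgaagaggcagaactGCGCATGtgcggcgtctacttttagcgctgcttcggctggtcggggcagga
Atp5g3, complex V, ERR, chr2:73911327-73911426, minus strand: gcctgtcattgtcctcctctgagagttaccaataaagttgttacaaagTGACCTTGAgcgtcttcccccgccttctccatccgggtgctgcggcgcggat

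In these stretches the capitals begin 53 bases before the start in Sdhb, 66 in Uqcr11, 59 in Cycs, 51 in Cox5b and 52 in Atp5g3. Their genes had unlike values with IL-4. The authors' deposited table gives Sdhb at -0.04 ± 0.17, Uqcr11 at -0.25 ± 0.22, Cycs at -0.26 ± 0.23, Cox5b at -0.15 ± 0.18 and Atp5g3 at -0.25 ± 0.18. None of these passed the test, and a match of letters is a description of the window and no site.

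Genes that assemble the complexes had medians nearer to 0 than the members, and longer transcripts. Of 42 such factors, 41 were listed with IL-4, with 31 below 0, a median of -0.08 and none called. Their median length was 1710 bases, against 784 for the 51 members. With the trend of all genes on length subtracted, their median was -0.005, against -0.05 for the members. At an unadjusted p under 0.05 stood 2 of the 41, against 2.95% of all genes. Cox17, the copper chaperone of complex IV, lay at -0.59 ± 0.24 in the authors' deposited table. Higd1a, a supercomplex factor induced by low oxygen, lay at -0.47 ± 0.23 in the same table. With PBS 40 were listed, 20 below 0, with a median of -0.01, and none reached an unadjusted p under 0.05. Of 11 factors of mitochondrial transcription and RNA handling, 10 were listed. With IL-4, 7 were below 0 with a median of -0.03, and 1 reached an unadjusted p under 0.05, against 2.95% of all genes. It was Slirp, which stabilises mitochondrial mRNAs together with Lrpprc, at 394 against 562 mean normalized counts (-0.51 ± 0.26 in the authors' deposited table). Lrpprc itself was at 0.04 ± 0.18. With PBS 5 were below 0, with a median of -0.03, and none reached that p.

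Markers of the labelled cell type and of others were read in the same tables. All 8 macrophage markers were listed, summing to 466030 mean normalized counts in the libraries labelled NIK KO against 491470 in WT with IL-4, and to 640920 against 628250 with PBS. The sum with IL-4 is mostly Lyz2, at 318200 against 370100, while 5 of the 8 genes were above 0, with a median of 0.06. Adgre1 lay at 0.54 ± 0.18 (adjusted p = 0.672 by DESeq2) and Csf1r at 0.27 ± 0.15 in the authors' deposited table. Of 10 fibroblast markers, 9 were listed with IL-4, with 8 below 0, a median of -1.52 and 1 called (Col3a1), and they summed to 283 in NIK KO against 699 in WT. With PBS 8 were listed, summing to 165 against 204. Erythroid markers, 6 of 9 listed with IL-4, summed to 158 in NIK KO against 344 in WT, with 4 below 0, and with PBS 5 listed markers summed to 103 against 96.1. Neutrophil markers were listed for 5 of 8 genes with IL-4, summing to 173 in NIK KO against 242 in WT, and for 6 with PBS, summing to 203 against 224. Of 4 dendritic cell markers all were listed, summing to 79.2 against 67.9 with IL-4 and 47.7 against 34.6 with PBS. The 1 listed mast cell marker, Kit, had 19.4 against 4.29 with IL-4 and 13.8 against 8.85 with PBS. B cell markers, 2 of 4 listed with IL-4, had a log2 ratio of NIK KO over WT of -1.31 for their sums, and the 1 listed with PBS had 7.42 in NIK KO against 7.11 in WT. No T cell marker was listed in either table. The part of such cells in the lower values of complexes III to V with IL-4 was not tested.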

How the data were processed

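RNA sequencing of 8 macrophage libraries gave 2 tables, each comparing the libraries labelled NIK KO with WT over 4 libraries. The submitters' processing notes name Salmon 1.4.0, DESeq2 1.32.0 and build GRCm39, but what each did, the annotation and any filter are not stated there. For each gene the authors deposited, per the file headers, a base mean (a signal: counts scaled by size factors, averaged), a log2 fold change with its SE, a Wald score, a p-value and an adjusted p-value. Fold changes were read as NIK KO over WT in both tables, after the file name of the IL-4 comparison. Adjusted values recomputed by the Benjamini-Hochberg method differed from the deposited ones by at most 3.2e-05, and 551 genes with IL-4 have none.

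Genotype was tested by the DESeq2 Wald test as deposited by the authors, over all genes, at an adjusted p under 0.05. For the difference between treatments, the fold change with PBS was subtracted from that with IL-4 and divided by the root of the sum of both squared SEs (two-sided z test, Benjamini-Hochberg adjustment over 13384 genes). This ignores that both treatments share their mice. Steps were tested on simulated data. Group means follow from base mean and fold change with 2 libraries on each side. Length and shared 31-base words come from the longest GENCODE M21 transcript of a gene (GRCm38, found for 99.8% of genes), and promoters from RefSeq GRCm38.p6. Members, lists and tests were chosen with earlier results of these data known, and the grouping of subunits by role, the split at 1000 bases and the pair sums with copies, also for levels, were chosen after values were seen. Values by name were given at least for members past an adjusted or unadjusted p of 0.05 in a table or in the difference. The same holds for mitochondrial members, complex II and cytochrome c. It also holds for the lowest and highest member of base mean 100 or more in each of complexes III to V. Means, SE and p are not all printed for each of these. Software was Python 3.11.15, pandas 2.3.3, numpy 2.4.6, matplotlib 3.10.9 and scipy 1.17.1.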

Additional observations from a re-analysis of the deposited data

How the results depend on the processing

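No paired analysis was possible because the tables hold no value per library, although the same mice gave PBS and IL-4 cells, and for the same reason no library could be left out and no depth is known. Of 40 recomputed summary values, 36 stayed near the value as deposited. Near meant a count that was equal or within 1.5-fold, or a median that moved by less than the members' median SE. By that rule the IL-4 median counted as near after subtraction of the length trend, although it went from -0.21 to -0.05. The number of members called with IL-4 was 0 against a t distribution with 2 degrees of freedom and 6 at an unadjusted p under 0.05, in place of 1. At an unadjusted p under 0.05 it was 1 with PBS and 1 for the difference between treatments, in place of 0 each. Calls did not change when p-values were adjusted over genes of base mean 10 or more or 100 or more, nor when the median of all genes, 0.01 with IL-4 and 0.00 with PBS, was subtracted. The median of members with IL-4 stayed between -0.22 and -0.20 over all alternatives but the subtraction of the length trend, which gave -0.05. With PBS it stayed between -0.05 and -0.03. An error correlation of 0.5 between the tables gave no call in the difference. Subunits lower in the libraries labelled NIK KO with IL-4 numbered 39 of 51 after the length trend was subtracted, in place of 47. Over all genes this count was 7521 of 14193, in place of 7251.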
